A study of Mus musculus with 4 samples.

Results

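Transcripts of 10 genes of the EGF and FGF signalling pathway were followed in single cells of 4 mouse neural stem cell (NSC) lines. The genes were chosen by name and role: the receptors *Egfr*, *Fgfr1*, *Fgfr2*, and *Fgfr3*, the feedback inhibitors *Spry1*, *Spry2*, *Spry4*, and *Dusp6*, and the ETS transcription factors *Etv4* and *Etv5*. All 10 were listed in the table of every line, out of 17419 genes listed in at least 1 of them. The lines were derived from epiblast stem cells (EpiSCs) of the 129/Sv strain, and all of them were cultured with EGF and FGF2, each at 10 ng/ml. XN4 and XN1 also received XAV939 (XAV), a tankyrase inhibitor that antagonizes Wnt signalling, at 10 µM, and XAV came from a different supplier for each of them, with crystalline precipitates in the cultures of XN1. CN4 received CHIR99021 (CHIR), a GSK3 inhibitor that activates Wnt signalling, at 2 µM, and KN1 received neither. As every line was profiled as 1 library, there was no replicate error, no test between lines was made, and a line cannot be told apart from its library. The cell line field of the labels names the same samples X4A, X1C, K1B, and C4D, and the names in the sample titles are used here.

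EGF binds to the receptor encoded by *Egfr*, and FGF2 to the receptors encoded by the Fgfr genes. Both kinds of receptor are tyrosine kinases that activate the Ras and MAP kinase cascade, at the end of which the kinase ERK phosphorylates its substrates. NSCs are propagated in culture with these ligands, which keep them dividing. ERK signalling raises the transcription of its own inhibitors: the Sprouty proteins act between the receptor and Raf, and the phosphatase encoded by *Dusp6* removes the phosphates of ERK in the cytoplasm. *Etv4* and *Etv5* encode ETS factors of the PEA3 group, which are widely used as readouts of FGF signalling in the embryo.

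The bases upstream of the annotated starts of *Spry1*, *Spry2*, and *Dusp6* are shown because these inhibitors were captured together in single cells of CN4, as described later. The highest ratios there were among *Spry1*, *Spry4*, and *Dusp6*, and no sequence is shown for *Spry4*. The sequences are those of RefSeq on GRCm38.p6, 250 bases each, read 5′ to 3′ on the strand of the gene. Capitals mark CGGAA, the core bound by ETS factors preceded by a C, or its reverse complement TTCCG. This motif was chosen after the sequences were seen.
Spry1, chr3:37639697-37639946, plus strand: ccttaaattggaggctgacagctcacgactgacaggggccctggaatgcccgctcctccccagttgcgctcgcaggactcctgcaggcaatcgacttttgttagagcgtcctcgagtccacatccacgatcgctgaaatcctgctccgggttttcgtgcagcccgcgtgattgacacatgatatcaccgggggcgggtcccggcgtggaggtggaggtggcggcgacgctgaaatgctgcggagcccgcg
Spry2, chr14:105896820-105897069, minus strand: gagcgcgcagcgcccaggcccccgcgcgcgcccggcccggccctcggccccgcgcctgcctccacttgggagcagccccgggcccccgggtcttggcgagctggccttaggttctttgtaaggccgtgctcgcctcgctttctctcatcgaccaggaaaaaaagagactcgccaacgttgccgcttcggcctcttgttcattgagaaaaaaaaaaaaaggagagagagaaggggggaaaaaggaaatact
Dusp6, chr10:99262981-99263230, plus strand: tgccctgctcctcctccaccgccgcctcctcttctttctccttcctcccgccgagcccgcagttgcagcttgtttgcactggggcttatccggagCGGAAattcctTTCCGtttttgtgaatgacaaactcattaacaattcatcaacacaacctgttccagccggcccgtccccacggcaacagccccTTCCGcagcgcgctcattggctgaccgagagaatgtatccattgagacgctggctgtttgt
The *Dusp6* window held 3 matches, and the windows of *Spry1* and *Spry2* held 0. Among 32851 promoter windows of the same length, 25.2% held at least 1 match, and 2.12% held 3 or more. Of the other members with an entry, *Egfr* had 1 match, and *Fgfr2*, *Fgfr3*, and *Etv5* had 0. A match is a description of the letters, and 0 matches in a window says nothing about binding elsewhere.

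The normalized tables held 3448 to 3975 cells and 19271688 to 41539513 reads per line, and a transcript counted as captured in each cell that held a read of it. The KN1 library differed from the others, with a median of 833 genes per cell against 2257 to 2824, and 764 against 1649 to 1846 after every cell was thinned to 3200 reads. Levels in reads and shares of cells are therefore both given. XN4 stood apart by its transcripts, and whether this library is the neural stem cell line that its label names is in doubt. The neural progenitor marker *Sox2* was captured in 0.560% of XN4 cells, and *Fabp7* and *Hes5* were not listed in its table. Its 11 connective tissue markers summed to 9247 reads per 1000000 reads of the line (RPM) against 103 to 298 in the other lines, and *Col3a1* was captured in 97.8% of its cells. Neuron markers summed to 4.31 to 104 RPM and epiblast markers to 0 to 1.92 over the 4 lines. Of 10 neural progenitor markers, 8 were listed in XN4 and 4 were captured in at least 10% of its cells: *Vim* (84.4%), *Slc1a3* (22.2%), *Notch1* (21.0%), and *Msi1* (16.8%). The 10 markers summed to 1526 RPM in XN4, of which *Vim*, which connective tissue cells also express, made up 1325, against 4763 in XN1, 4809 in KN1, and 10719 in CN4. Results are also given without XN4 where they rest on it. Between 14 and 21 cell indices were shared by each pair of libraries, 106 in all, and leaving out those cells changed none of the counts of members between lines. Reads were not collapsed by molecular identifiers, so copies of 1 molecule can count as separate reads. The 95% intervals of levels and of their ratios treat reads as independent, and are too narrow for numbers of molecules. The 95% intervals of shares and numbers of cells cover counting error only.

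In RPM, *Egfr* was highest in KN1, *Fgfr1* and *Fgfr2* were similar in all lines, and *Fgfr3* was found mainly in KN1 and CN4. Summed over these 4 receptors, the level was 435 RPM in XN4 and 485 in XN1, and 972 in KN1 and 498 in CN4. Without *Egfr*, the summed level of the 3 FGF receptors was 349, 342, 451, and 352 RPM in the same order. The receptor difference of KN1 therefore lay mostly in *Egfr*.

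*Egfr* (chromosome 11, 16752203 to 16918158, plus strand, in GRCm38) had 85.7 RPM in XN4 and 142 in XN1, and 520 in KN1 and 146 in CN4. The level of KN1 was 3.57 times that of CN4 (3.43 to 3.70) and 3.66 times that of XN1 (3.51 to 3.81), while the intervals of XN1 and CN4 overlapped. The share of cells with an *Egfr* read did not show this difference: after thinning to 3200 reads, it was 15.3% in XN4 and 31.1% in XN1, and 31.2% in KN1 and 30.4% in CN4, and the last 3 lines had overlapping intervals. The mean number of *Egfr* reads per capturing cell was 10.9 in KN1 and 1.66 to 3.45 in the others. This was not particular to *Egfr*, as KN1 had the highest such mean for every other member as well. For *Fgfr1*, for example, it was 6.85 in KN1 and 1.91 to 3.96 in the others. When cells with a read were divided by all gene detections of the line in place of reads, KN1 remained highest, with 3.53 per 10000 detections against 0.970, 1.84, and 1.61 in XN4, XN1, and CN4. This measure rises where a library holds few genes per cell, as that of KN1 did. Before thinning, *Egfr* was captured in 33.1% of KN1 cells against 42.3% in XN1 and 44.5% in CN4. The detection values are therefore not separate evidence of a higher *Egfr* level in KN1.

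*Fgfr1*, which encodes the FGF receptor most widely found in neural progenitors, had 237 RPM in XN4 and 218 in XN1, and 233 in KN1 and 177 in CN4. Its highest and lowest levels differed only 1.34-fold. Thinned capture shares were 44.3%, 46.4%, 21.5%, and 36.7% in the same order, with the low value in the sparse KN1 library. *Fgfr2* had 108, 123, 144, and 155 RPM, a range of 1.43-fold, and thinned shares of 23.6%, 28.7%, 17.2%, and 35.1%. The *Fgfr2* values are uncertain, because its annotated span of 2960900 bases on chromosome 7 overlaps 69 other genes, 36 of them on the same strand, and reads in introns were counted.

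*Fgfr3*, a receptor known from radial glia and astrocyte precursors, varied most among the receptors. It had 3.66 RPM in XN4 and 2.08 in XN1, and 74.4 in KN1 and 20.2 in CN4. The highest and lowest lines, KN1 and XN1, differed 35.9-fold, and this did not involve XN4. Both lines grown with XAV were at the low end, with *Fgfr3* reads in 0.916% of thinned XN4 cells and 0.511% of XN1 cells against 8.10% in KN1 and 5.22% in CN4. No cell type in these libraries serves as a blank for these genes, so shares near 1% are not told apart from free RNA. With 1 line for CHIR, 1 without either agent, and 2 for XAV, of which XN4 was low in *Sox2* and other neural markers, the association with the agents was not tested.

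**Figure D1:**
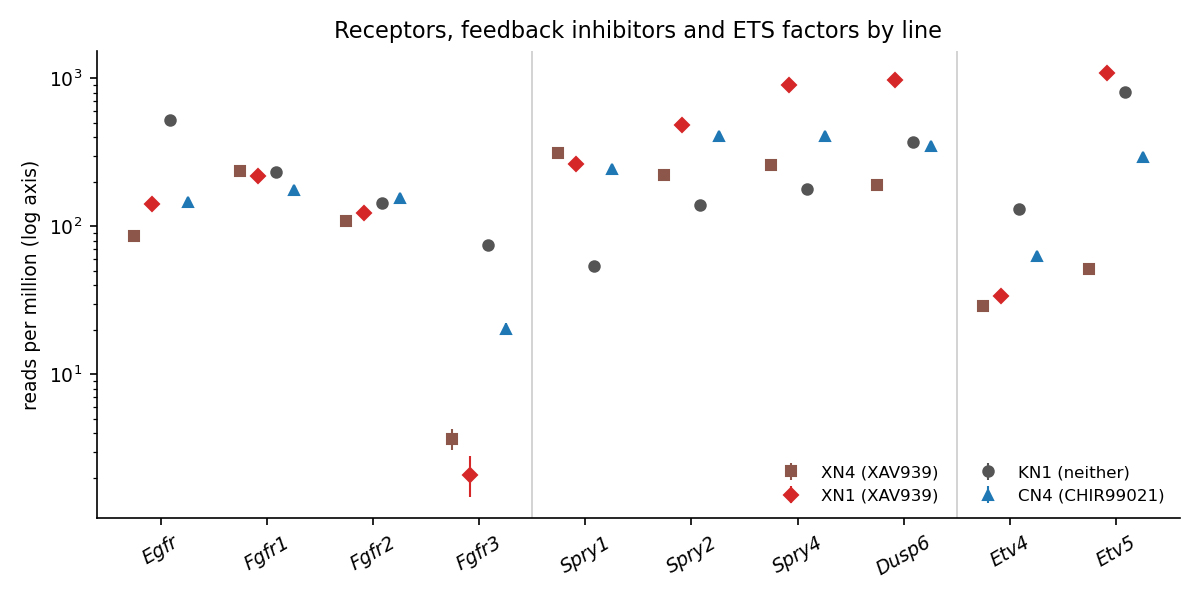
Levels, in RPM on a log axis, of the 4 receptors, 4 feedback inhibitors, and 2 ETS factors in XN4, XN1, KN1, and CN4, 1 library each, with exact Poisson 95% intervals, most of which are narrower than the symbols. The intervals treat reads as independent and are too narrow for numbers of molecules. *Fgfr1* and *Fgfr2* lie close together in all lines, while *Fgfr3* spans 2.08 to 74.4 and *Etv5* spans 51.9 to 1087 RPM.

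All lines received both ligands, and cells with transcripts of receptors for both were found in each of them. In thinned cells, *Egfr* and at least 1 of *Fgfr1*, *Fgfr2*, and *Fgfr3* were captured together in 9.01% of XN4 (8.07% to 10.0%), 20.0% of XN1 (18.6% to 21.5%), 13.5% of KN1 (12.4% to 14.7%), and 18.5% of CN4 (17.1% to 19.9%). Without thinning, these shares were 22.0%, 32.0%, 17.0%, and 35.8%, so the orders of XN4 and KN1 and of XN1 and CN4 depended on thinning. Cells with an FGF receptor and no *Egfr* read were the largest class of the 4 in XN4, XN1, and CN4, at 48.7%, 41.6%, and 41.5%, respectively. In KN1, the largest class was that with no receptor read, at 42.6%, and *Egfr* alone was found in 17.7% of cells against 6.32% to 11.9% in the other lines. The absence of a read at this depth does not show that a cell lacks the receptor.

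The 4 feedback inhibitors were at higher levels in XN1 than in KN1, and 3 of them were highest in XN1. *Spry4* had 259 RPM in XN4 and 905 in XN1, and 179 in KN1 and 405 in CN4. *Dusp6* had 189, 967, 370, and 349 RPM in the same order of lines. Both were thus highest in XN1, 2.24 and 2.77 times as high as in CN4, respectively.

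*Spry2* had 224 RPM in XN4 and 483 in XN1, and 139 in KN1 and 409 in CN4, with the same order of lines as *Spry4*. *Spry1* departed from this order: it had 311 RPM in XN4 and 263 in XN1, and 54.0 in KN1 and 245 in CN4. The 3 lines that received XAV or CHIR lay within 1.27-fold of each other for *Spry1*, and the highest was 5.76 times the level of KN1 (4.87 times without XN4). *Spry1* was captured in 48.9% of thinned cells in XN4 and 48.3% in XN1, and in 5.57% in KN1 and 41.4% in CN4. Per 10000 detections, which allows for the fewer genes per KN1 cell, *Spry1* stood at 2.36, 2.47, 0.764, and 1.98, so KN1 was lowest by this measure as well.

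Thinned capture shares of the other inhibitors were highest in XN1. *Spry2* was captured in 42.0% of XN4, 72.1% of XN1, 13.0% of KN1, and 59.9% of CN4 cells. *Spry4* was captured in 34.8%, 72.0%, 13.3%, and 45.2%, and *Dusp6* in 30.1%, 79.0%, 30.8%, and 43.0% of cells in the same order. KN1 and XN4 had overlapping intervals for *Dusp6*. The excess of *Dusp6* in XN1 over KN1 was not seen per 10000 detections, at 3.54 in XN1 and 3.59 in KN1. Before thinning, *Dusp6* was captured in 81.6% of XN1 cells and 33.6% of KN1 cells. A cell counts at most once by detections, so a 2-fold excess of XN1 could not have appeared by this measure.

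*Etv5* was highest in XN1 and lowest in XN4, so the 2 lines grown with XAV were at opposite ends of its range. It had 51.9 RPM in XN4 and 1087 in XN1, and 802 in KN1 and 294 in CN4. XN1 was 21.0 times as high as XN4 (20.0 to 21.9), and without XN4 the highest and lowest lines differed 3.70-fold, less than for *Spry1*, *Spry4*, and *Etv4*. *Etv5* was captured in 12.6% of thinned cells in XN4 and 90.4% in XN1, and in 58.7% in KN1 and 53.0% in CN4. XN1 was 1.36 times as high as KN1 in reads, but per 10000 detections KN1 was higher, at 6.57 against 4.10. Before thinning, *Etv5* was captured in 94.4% of XN1 cells and 61.6% of KN1 cells. A cell counts at most once by detections, so even capture in every XN1 cell would have left XN1 below KN1. Detections therefore cannot decide the order of these 2 lines.

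*Etv4*, its close relative, did not follow *Etv5*. It had 28.9 RPM in XN4 and 33.8 in XN1, and 130 in KN1 and 62.8 in CN4. XN1, with the highest level of *Etv5*, was thus close to XN4 at the low end for *Etv4*, and KN1 was highest. Thinned capture shares of *Etv4* were 5.82%, 9.68%, 15.5%, and 16.4% in XN4, XN1, KN1, and CN4, and those of KN1 and CN4 had overlapping intervals.

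**Figure D2:**
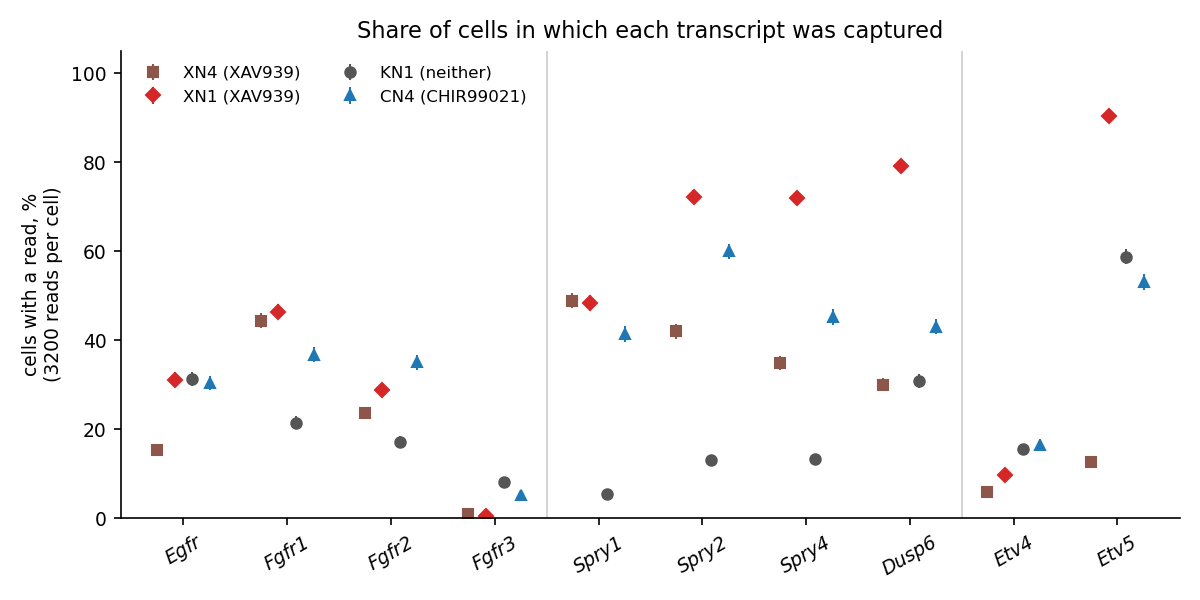
Percentage of cells with at least 1 read of each transcript after every cell was thinned to 3200 reads, in the 4 lines, with exact binomial 95% intervals. *Etv5* was captured in 90.4% of XN1 cells and 12.6% of XN4 cells, and *Spry1* in 5.57% of KN1 cells against 41.4% to 48.9% in the other lines.

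Differences of at least 2-fold were counted for each pair of lines, beside the share of all genes with at least 30 reads that passed the same limit. Of the 10 members, 7 passed it between XN1 and KN1, where 47.4% of all genes did, and 4 between XN1 and CN4, where 18% did. Between KN1 and CN4, 7 members passed it against 43.9% of all genes, with 4 higher in KN1 (24.1% of all genes) and 3 lower (19.8%). Between XN4 and XN1, 4 members passed it against 30.9% of all genes, of which 0 were higher in XN4 (16.8% of all genes) and 4 lower (14.1%), and the corresponding counts were 5 and 46.1% for XN4 and KN1, and 3 and 32.7% for XN4 and CN4. For pairs with XN4 the share of members was close to that of all genes, and with 10 members no pair was set apart by its count alone. By direction, XN1 had 4 members higher than KN1 against 21.6% of all genes, and these were the 4 feedback inhibitors, while 3 were lower, *Egfr*, *Fgfr3*, and *Etv4*, against 25.9%. Between XN1 and CN4, *Spry4*, *Dusp6*, and *Etv5* were higher in XN1, against 9.83% of all genes, and *Fgfr3* was lower, against 8.18%. These 3 calls were lost when detections replaced reads: per 10000 detections, *Spry4* stood at 3.32 in XN1 and 2.00 in CN4, *Dusp6* at 3.54 and 1.90, and *Etv5* at 4.10 and 2.52. Before thinning, they were captured in 76.4%, 81.6%, and 94.4% of XN1 cells, and a cell counts at most once by detections. This left little room for a 2-fold excess for *Spry4* and *Dusp6* and none for *Etv5*. The lost calls therefore do not show that the excess in reads was absent. By detections, the number of members past 2-fold was 1 between XN1 and CN4, where 15.4% of all genes passed it by that measure, and 4 between KN1 and CN4, against 39.1%. The calls lost between KN1 and CN4 were those of *Spry2*, *Spry4*, and *Etv4*, and those lost between XN1 and KN1 were *Egfr* and *Dusp6*. For *Dusp6*, detections left no room for a 2-fold excess of XN1 over KN1.

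The cells of the lines also differed in how many of the 6 feedback and ETS genes they held together. At 3200 reads, the median cell held 2 of them in XN4 and 4 in XN1, and 1 in KN1 and 3 in CN4. At least 4 were captured in 61.3% of cells in XN1 (59.6% to 63.0%) and 32.0% in CN4 (30.4% to 33.7%), but in 7.24% in XN4 (6.39% to 8.17%) and 2.89% in KN1 (2.35% to 3.51%). None was captured in 0.799% of cells in XN1, 10.5% in CN4, 15.6% in XN4, and 20.8% in KN1. The CN4 cells were the most spread out: the variance of the number captured was 1.81 times that of 6 independent transcripts with the same shares, against 1.27 in XN4, 1.46 in XN1, and 1.22 in KN1.

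**Figure D3:**
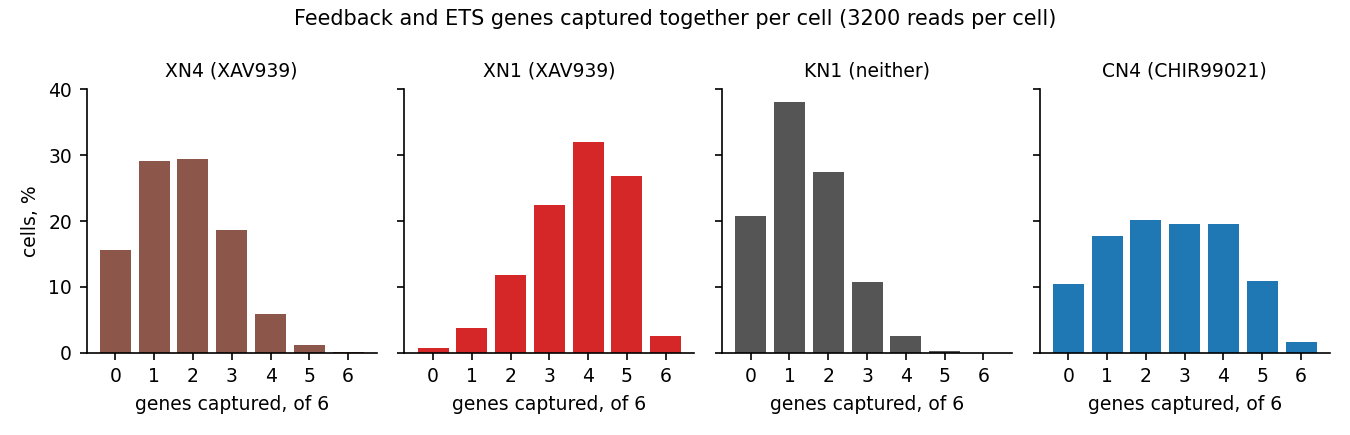
Percentage of cells in each line in which 0 to 6 of *Spry1*, *Spry2*, *Spry4*, *Dusp6*, *Etv4*, and *Etv5* were captured, at 3200 reads per cell. XN1 cells mostly held 3 to 5 of the genes, KN1 cells mostly 0 to 2, and CN4 cells were spread from 0 to 5. KN1 cells also held fewer genes of any kind.

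Pairs of members were next compared within each line, as the number of cells with both transcripts over the number expected within 20 strata of cells of like depth. In CN4, the inhibitors were captured together more often than that expectation. *Spry4* and *Dusp6* were both captured in 1365 CN4 cells against 1041 expected, a ratio of 1.31 (1.24 to 1.38). The ratio was 1.28 (1.21 to 1.35) for *Spry1* and *Spry4* and 1.25 (1.18 to 1.32) for *Spry1* and *Dusp6*. The pairs of *Spry2* with these genes had ratios of 1.14 to 1.17. By contrast, *Etv4* and *Etv5* had ratios of only 1.02 to 1.09 with the inhibitors and 1.03 with each other. Of 45 pairs of members in CN4, 3 exceeded 1.2, and among pairs of a member with any gene captured in at least 10% of cells, 0.523% did.

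The same ratios were computed in the other lines, and differences between lines were not tested. In XN1, the highest of 36 pairs was 1.11 for *Spry1* and *Etv4*, and 0 pairs exceeded 1.2 (0.0934% of pairs with any gene). A ratio has little room above 1 where a transcript is captured in most cells. Before thinning, *Etv5* was captured in 94.4% of XN1 cells, *Dusp6* in 81.6%, *Spry2* in 80.1%, and *Spry4* in 76.4%. In CN4, these shares were 69.7%, 52.6%, 72.9%, and 55.3%. The XN1 ratios therefore do not show whether its inhibitors were captured together less than those of CN4. In KN1, *Spry4* and *Dusp6* had a ratio of 1.25 (1.10 to 1.40), and 3 of 45 pairs exceeded 1.2, against 1.89% of pairs with any gene. The other pairs were *Fgfr1* with *Spry1*, at 1.26 (1.03 to 1.53), and *Spry1* with *Spry4*, at 1.23 (0.944 to 1.58). *Spry1* with *Dusp6* had 1.17 (0.979 to 1.39), and for the 3 pairs of *Spry1*, *Spry4*, and *Dusp6* the intervals of KN1 overlapped those of CN4. In XN4, the 1 pair of 36 over 1.2 was *Etv4* with *Etv5*, at 1.35 (1.18 to 1.53), where 0.397% of pairs with any gene exceeded it. These 2 ETS genes were at their lowest levels in XN4, and their ratio in the other lines was 1.01 to 1.04. Before thinning, *Etv5* was captured in 23.9% of XN4 cells and in 61.6% to 94.4% of cells in the other lines. The ratios of this pair therefore had unlike room above 1.

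**Figure D4:**
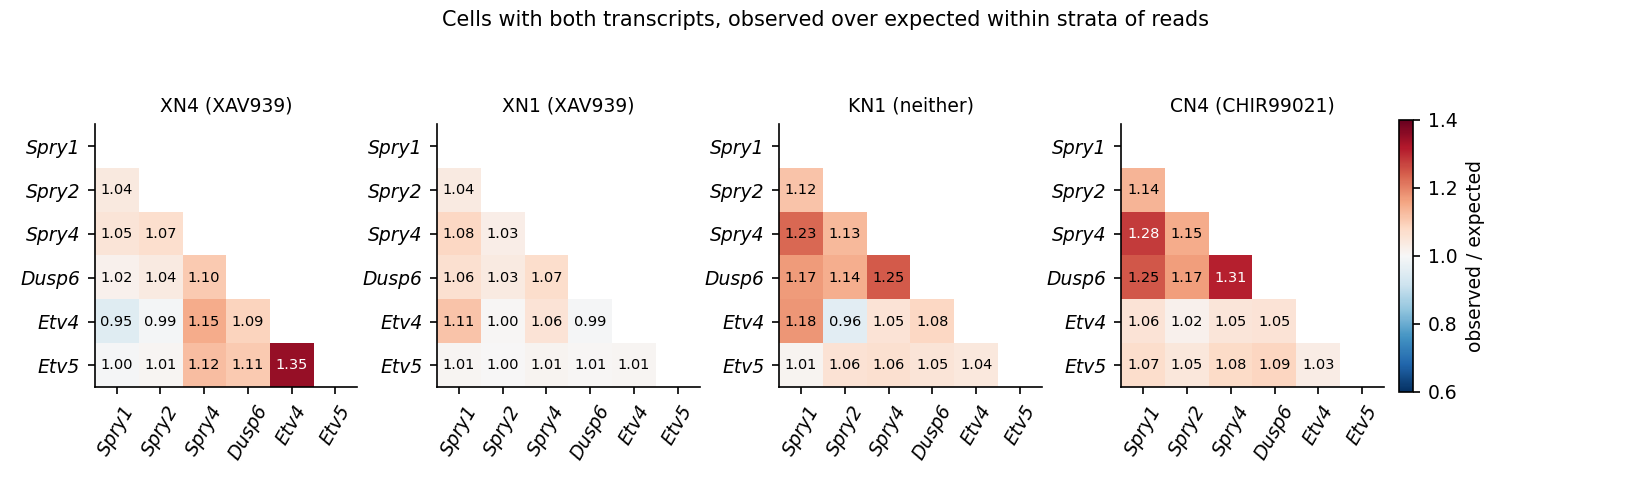
Number of cells with both transcripts over the number expected within 20 strata of cells ordered by reads, for each pair of the 6 feedback and ETS genes in each line; red is above 1 and blue below 1. In CN4, the pairs of *Spry1*, *Spry4*, and *Dusp6* reach 1.25 to 1.31, and in XN4 the highest pair is *Etv4* with *Etv5*, at 1.35. Ratios have less room above 1 for transcripts captured in most cells, such as *Etv5* in XN1.

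The CN4 cells were then sorted by *Spry1*, *Spry4*, and *Dusp6*, a set chosen after these ratios were seen, so that what follows is a description. At 3200 reads per cell, 588 of 3158 CN4 cells held all 3 transcripts where 254 were expected from their shares, and 1006 cells held none where 578 were expected. In XN1, 1071 of 3129 cells held all 3 against 860 expected, and 231 held none, 2.43 times the number expected. In XN4, the numbers were 239 against 173 for all 3 and 916 against 789 for none. In KN1, 19 cells held all 3 against 7.77 expected, a ratio of 2.44 beside 2.31 in CN4, and these cells were too few for a comparison of other genes. The median number of genes per cell was 1850 with all 3 and 1833 with none in CN4, 1808 and 1803 in XN1, and 1727 and 1570 in XN4.

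CN4 cells with all 3 inhibitors more often held transcripts of some other genes of the pathway. Of the 7 other members, 4 were over 10 percentage points more frequent in them and 0 over 10 points less frequent. *Spry2* was captured in 79.3% of them and in 38.5% of the cells with none. *Etv5* was captured in 62.4% against 41.2%, *Egfr* in 39.6% against 24.1%, and *Fgfr1* in 43.0% against 31.6%. *Etv4* was captured in 15.6% of both classes, *Fgfr3* in 5.44% against 6.86%, *Erbb4* in 7.99% against 15.5%, and the ERK target *Fos* in 24.8% against 34.3%. Of the other feedback genes, 3 of 8 captured in at least 5% of these cells were over 10 percentage points more frequent: *Spred1* (73.6% against 52.5%), *Il17rd* (38.3% against 21.2%), and *Dusp4* (17.3% against 3.48%), where 1.63% of all genes passed that limit. Of 7 other targets of the pathway, 4 passed it, and of 14 adaptors and kinases, 0 did. Outside the pathway lists, the largest differences were in *Klf10*, an early response transcription factor, with 43.4% against 10.7%, and *Hmga2*, a chromatin protein of growing progenitors, with 71.6% against 40.1%. *Irs2*, an adaptor of the insulin receptor, was captured in 36.1% against 9.74%. The 4 other targets counted above included *Ccnd1*, which encodes cyclin D1, with 86.7% against 61.9%, and *Myc*, with 32.5% against 7.85%.

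The transcripts that were less frequent in these CN4 cells were led by genes of mitosis. Of 12 G2-M genes, 11 were over 10 percentage points less frequent, where 1.24% of all genes were. For example, *Mki67* was captured in 36.7% of the cells with all 3 inhibitors and in 58.5% of those with none, and *Prc1*, a protein of the spindle midzone, in 22.6% against 45.7%. Of 11 S phase genes, 1 was. Of 9 neural progenitor markers, 3 were over 10 points less frequent, *Sox2* (62.6% against 79.9%), *Hes5* (a difference of -14.9 points), and *Notch1* (59.0% against 71.3%), and 1 was over 10 points more frequent, *Nes* (73.5% against 62.3%). Of 5 oligodendrocyte precursor markers, 2 were frequent enough to be compared, and 1 was over 10 points more frequent, as were 1.63% of all genes. This was *Olig2* (83.8% against 67.2%), while *Olig1* was captured in 81.6% against 73.8%. The other markers, *Sox10*, *Pdgfra*, and *Cspg4*, were captured in 2.03%, 1.68%, and 0.580% of all CN4 cells.

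The lists of XN1 and CN4 overlapped. When the 25 genes with the largest differences were taken from each line, 13 of the higher genes were shared by XN1 and CN4, 52% of each list, out of 7353 genes ranked in both. They were *Akap12*, *Epn2*, *Ier3*, *Inka2*, *Irf2bpl*, *Irs2*, *Klf10*, *Klf3*, *Mtss1l*, *Plk2*, *Rassf3*, *Spry2*, and *Trib2*. In XN1, *Klf10* was captured in 34.9% of the cells with all 3 inhibitors and 12.1% of those with none, and *Irs2* in 43.2% and 18.6%. Of the 25 lower genes, 4 were shared, *Cdk1*, *Ckap2*, *Myo10*, and *Sox2*. In XN1, 1.14% of genes were over 10 points higher and 0.451% over 10 points lower. XN4 shared 3 of the higher genes with XN1 and 5 with CN4, and 0 of the lower genes with either. In XN4, 3.6% of genes were over 10 points higher and 0.18% lower, and its 2 classes differed in genes per cell as given above.

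The division state was also examined directly, by comparing cells in which both *Mki67* and *Top2a* were captured with cells in which neither was, at 3200 reads. The dividing class held 499 XN4, 604 XN1, 598 KN1, and 1241 CN4 cells, and the other class 2340, 2027, 1754, and 1130 cells, respectively. In CN4, the 4 inhibitors were all less frequent in dividing cells. *Dusp6* was captured in 33.9% of dividing and 51.1% of other CN4 cells, a difference of -17.1 percentage points (-21.0 to -13.2). The difference was -14.1 points (-18.0 to -10.1) for *Spry4*, -12.8 (-16.7 to -8.87) for *Spry2*, and -12.7 (-16.6 to -8.77) for *Spry1*. With *Egfr*, at -5.07 points, 5 of 10 members were over 5 points lower and 0 over 5 points higher, against 7.36% and 11% of all genes. *Etv4* and *Etv5* differed by -2.68 and -2.44 points in CN4, with intervals that included 0. Dividing and other CN4 cells had medians of 1865 and 1821 genes. Without thinning, the differences of the 4 inhibitors shrank to between -5.26 and -1.58 points and kept their direction.

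In the other lines, the 4 inhibitors did not all pass 5 points, and differences between lines were not tested. Those within the limit were *Spry4* (-3.33 points) and *Spry2* (-0.40) in XN1. In XN4, they were *Spry1* (-2.10), *Spry4* (2.60), and *Dusp6* (-0.65). In KN1, they were *Spry1* (0.09), *Spry4* (-3.36, and 2.97 without thinning), and *Dusp6* (-3.84). In XN1, *Spry1* (-7.74 points, -12.2 to -3.20), *Dusp6* (-6.97, -11.0 to -3.18), and *Etv5* (-5.44, -8.60 to -2.63) were over 5 points less frequent in dividing cells, as were 11.6% of all genes, and 0 of 9 members were over 5 points more frequent. In XN4, *Etv5* (6.24 points, 2.88 to 10.0) and *Spry2* (5.78, 1.00 to 10.6) were more frequent in dividing cells, as were 17.9% of all genes. *Fgfr1* (-7.45 points, -12.1 to -2.67) and *Egfr* (-6.92, -9.76 to -3.60) were less frequent there, as were 8.9% of all genes. Without thinning, these 2 differences turned to 12.7 and 1.49 points, that of *Etv5* in XN1 to 0.58, and that of *Egfr* in CN4 to 5.20. In KN1, *Spry2* was more frequent in dividing cells (6.03 points, 2.76 to 9.61), as were 20.1% of all genes, and 0 members and 0.167% of all genes were over 5 points less frequent. Dividing KN1 cells had a median of 913.5 genes against 707 in the others, and the part of this in the KN1 values was not tested.

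**Figure D5:**
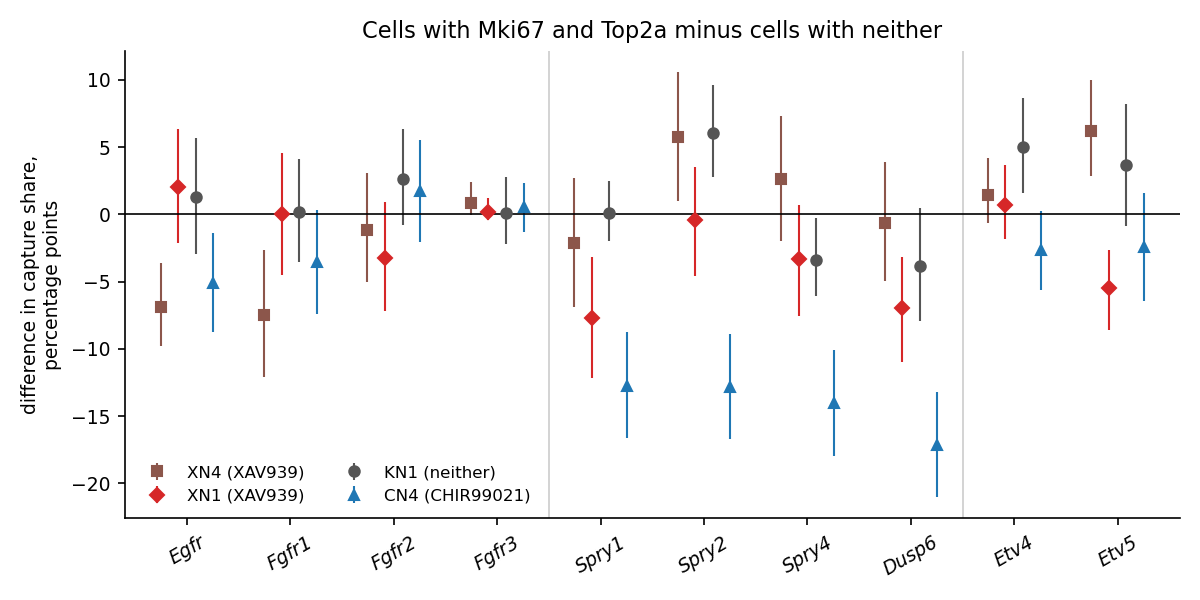
Difference in capture share between cells with both *Mki67* and *Top2a* and cells with neither, in percentage points, at 3200 reads per cell, with Newcombe 95% intervals. The 4 inhibitors lie between -17.1 and -12.7 points in CN4, and the receptors and ETS factors lie within 8 points of 0 in every line.

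The co-capture of the CN4 inhibitors was also seen within cells that held neither *Mki67* nor *Top2a*. Among these, the ratio was 1.25 for *Spry4* and *Dusp6*, 1.22 for *Spry1* and *Spry4*, and 1.23 for *Spry1* and *Dusp6*. This alternative was added after the data were seen. The corresponding ratio of *Etv4* and *Etv5* in XN4 was 1.46.

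For each member, the 3 genes with the highest co-capture ratio were listed in the line with its highest thinned share, out of 6899 genes in XN1 and 7761 in CN4, for example. As they are the highest of so many, their intervals do not allow for the choice. With *Spry4* in XN1, they were *Dusp4* (1.13, 1.05 to 1.21), *Klf10* (1.13, 1.06 to 1.19), and *Ier3* (1.10, 1.03 to 1.17), which include a further ERK phosphatase and an immediate early gene. With *Dusp6* in XN1, they were *Klf10* (1.10, 1.04 to 1.17), *Ctgf* (1.09, 1.00 to 1.18), and *Myc* (1.09, 1.02 to 1.16). With *Etv4* in CN4, they were *Ppp1r3c* (1.37), *Junb* (1.31), and the Wnt receptor gene *Ror2* (1.29). With *Fgfr3* in KN1, the ratios of *Atp6v1g1*, *Mageh1*, and *Lrp6* were 1.46 to 1.48, on 76 to 87 cells each. For the other 6 members the highest ratios were at most 1.17, and for *Spry2* and *Etv5* the intervals of all 3 genes included 1. Both were examined in XN1, where they were captured in 80.1% and 94.4% of cells before thinning. Such shares leave a ratio little room above 1, so these intervals do not show a lack of co-capture.

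Other genes of the pathway were described by the same 2-fold count. Of 3 or 4 other receptors tested, 3, 2, and 3 passed it for XN4 against XN1, KN1, and CN4, where 30.9%, 46.1%, and 32.7% of all genes did. The counts were 2 between XN1 and KN1 (47.4%), 0 between XN1 and CN4 (18%), and 2 between KN1 and CN4 (43.9%). Among these receptors, *Erbb4*, which encodes a receptor for neuregulins, had 2.70 RPM in XN4 and 91.1 in XN1, and 1165 in KN1 and 55.9 in CN4, and thus was highest in the same line as *Egfr*. *Fgfrl1*, a receptor that lacks a kinase domain, had 27.7, 207, 48.7, and 174 RPM, and was high in XN1 and CN4.

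Of 5 EGF family ligands tested, 3 passed 2-fold for XN4 against XN1 (30.9% of all genes), 3 against KN1 (46.1%), and 5 against CN4 (32.7%), and in the pairs of the other lines 3 did between XN1 and KN1 (47.4%), 2 between XN1 and CN4 (18%), and 4 between KN1 and CN4 (43.9%). Of the FGF ligands tested, the counts were 3 of 4, 4 of 4, 4 of 5, 2 of 3, 3 of 4, and 2 of 4 in the same order of pairs. The ligands named next are those with the largest ratios. *Fgf7* had 62.4 RPM in XN4 and 0.523 in CN4 and was not listed in XN1 and KN1, and *Fgf10* had 34.3 in XN4 and 0.689 to 1.56 in the other lines. Both ligands are typically made by mesenchyme, and the connective tissue markers were high in the same library. The part of such cells in these values was not tested. *Fgf1* had the opposite pattern, with 7.97 RPM in XN4 and 217 in XN1, and 155 in KN1 and 83.0 in CN4. Of the EGF family, *Hbegf* had 6.16, 49.9, 47.5, and 83.5 RPM in the same order.

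Of 14 or 15 adaptors and kinases of the cascade tested, between 1 and 3 passed 2-fold in each pair of lines, where 18% to 47.4% of all genes did. *Shc1*, an adaptor of receptor tyrosine kinases, was among these, with 477 RPM in XN4 and 114 in XN1, and 39.5 in KN1 and 54.7 in CN4. *Mapk3*, which encodes ERK1, was also highest in XN4, with 199 against 75.2 to 93.9 RPM, and *Nras* was highest in CN4, with 423 against 161 to 276.

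Of 10 other feedback genes tested, 6 passed 2-fold between XN1 and KN1 (47.4% of all genes) and 7 between KN1 and CN4 (43.9%). The count was 2 between XN1 and CN4 (18%), and for XN4 it was 6 against XN1 (30.9%), 6 against KN1 (46.1%), and 4 against CN4 (32.7%). *Dusp4*, a nuclear phosphatase of MAP kinases, had 2.74 RPM in XN4 and 71.9 in XN1, and 7.04 in KN1 and 40.7 in CN4. *Il17rd*, the Sef inhibitor of FGF signalling, had 84.1, 10.2, 24.9, and 134 RPM, and was lowest in XN1, where *Spry2*, *Spry4*, and *Dusp6* were highest. *Errfi1*, an inhibitor of the EGF receptor, had 508 RPM in XN4 against 8.82 to 20.7 in the other lines.

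Of 8 other targets, 4 passed 2-fold between XN1 and KN1, all of them higher in XN1 (21.6% of all genes), and 6 between KN1 and CN4, with 5 lower in KN1 (19.8%). The count was 3 between XN1 and CN4 (18% of all genes), and for XN4 it was 5 against XN1 (30.9%), 5 against KN1 (46.1%), and 5 against CN4 (32.7%). *Ccnd1* had 221 RPM in XN4 and 2499 in XN1, and 279 in KN1 and 1344 in CN4, with the 2 highest lines the same as for *Spry2* and *Spry4*. *Ier3* had 28.5, 121, 6.24, and 53.9 RPM, with the same 2 lines at the top. *Fos* had 135, 105, 19.1, and 258 RPM and was highest in CN4. Among the inhibitors and these targets, KN1 was lowest in RPM for *Spry1*, *Spry2*, *Spry4*, *Ier3*, and *Fos*. It was not lowest for *Dusp6* (370 RPM, second to XN1) or *Ccnd1* (lowest in XN4). Its *Egfr*, *Fgfr3*, *Erbb4*, and *Etv4* levels were the highest of the 4 lines, and its *Etv5* level (802 RPM) was second to XN1. By thinned shares, *Etv4* was highest in CN4, and the *Egfr* intervals of KN1 and XN1 overlapped.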

How the data were processed

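Single-cell RNA of 4 lines was captured with BD Rhapsody beads after storage of the cells in CellCover for up to 2 weeks. The authors processed reads with the BD Rhapsody WTA pipeline 1.12.1 (GRCm38, GENCODE M19, introns counted), deposited read counts per cell, of which those for XN4, XN1, and CN4 were used, and drew a random part of the cells of each line for normalized tables made with Seurat 4.3.0. The deposited normalized values were the natural log of 1 plus reads per 10000, without ribosomal protein and mitochondrial genes. They were turned back into reads, which came out whole within 0.01 in 100% of cells. A table of read counts per cell for KN1 was not analysed here, and the pipeline settings of that library are not given in the sources used here.

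Reads were summed per line and scaled to 1000000, with exact Poisson intervals. Capture shares have exact (Clopper-Pearson) intervals, and differences of shares Newcombe intervals. Gene positions are those of GENCODE M21. No doublet caller was run, and an alternative dropped the deepest 5% of cells. Pairs of members were used where both were captured in at least 5% of cells. Scripts in Python 3.11.15 with numpy 2.4.6, scipy 1.17.1, and matplotlib 3.10.9 were tested on simulated data. Lists of pathway and marker genes were fixed by name. Beside the 10 members, the text names at most 3 genes per pathway list, those with the largest ratio between lines (genes under 10% capture in every line were passed over), and the 3 genes most often captured with each member. Genes named for the cells with 3 inhibitors were taken after their values were seen. The members and lists were chosen with earlier results of these data known.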

Additional observations from a re-analysis of the deposited data

Results flagged for a closer look

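For *Spry2* and *Etv5*, the difference in capture share between dividing and other cells was over 5 percentage points in opposite directions in different lines. For *Spry2*, it was 5.78 percentage points in XN4, 6.03 in KN1, and -12.8 in CN4. For *Etv5*, it was 6.24 points in XN4 and -5.44 in XN1. With 1 library per line, the difference between the lines was not tested. Dividing cells also had more genes captured than the others, with medians of 1762 against 1611 in XN4 and 913.5 against 707 in KN1, and the part of this was not tested.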

How the results depend on the processing

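The 6 counts of members past 2-fold stayed within 1.5 times under median-of-ratios scaling, equal weight per cell, thinning, without the deepest 5% of cells, without shared cell indices, and, for 3 pairs, in all cells of the read count tables. The count moved from 3 to 7 for XN4 and CN4 at 1.5-fold, from 4 to 2 for XN1 and CN4 and from 7 to 3 for KN1 and CN4 at 3-fold, and, by detections, to 1 and 4 for the same 2 pairs. Detections also reversed the difference of *Dusp6* between XN1 and KN1, to -0.017 on the log2 scale. As *Dusp6* was captured in 81.6% of XN1 cells, detections had little room for an excess of XN1. The median capture share of the members was 42.5%, 56.6%, 20.6%, and 53.3% in XN4, XN1, KN1, and CN4. It was 29.1%, 31.3%, 13.4%, and 33.1% with at least 2 reads and 26.8%, 47.4%, 16.3%, and 39.0% after thinning. It was 40.4% in XN4 and 19.3% in KN1 without the deepest cells, and 57.0% in CN4 over all cells of the read count table. The median co-capture ratio rose to 1.21 in both XN4 and KN1 without strata of depth.

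The comparison of dividing cells depended on thinning. The median difference of the members was -0.65, -3.27, 0.75, and -4.32 points in the same order of lines, and without thinning 18.3, 2.91, 8.23, and 2.43. Without thinning, the sign reversed for *Egfr* (1.49) and *Fgfr1* (12.7) in XN4, *Etv5* (0.58) in XN1, *Spry4* (2.97) in KN1, and *Egfr* (5.20) in CN4. The share of cells with *Egfr* and an FGF receptor was 22.0%, 32.0%, 17.0%, and 35.8% without thinning. The cause of these changes was not tested. Detections, shared indices, and cells with neither *Mki67* nor *Top2a* were alternatives chosen after seeing the data. No paired analysis was possible because each line was 1 library.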
